A study of Mus musculus with 82 samples.

Results

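The mitosis genes described here are 33 genes of the G2/M phase and the mitotic spindle, listed by name and matched without regard to case among 78308 gene symbols found in at least 1 of 8 count tables from mouse sciatic nerve. All 33 were present in every table. Bulk RNA was sequenced from 82 nerve samples in 22 groups, and each table holds the samples of 1 experiment, so changes were tested within a table. The series title names the transcription factor Mitf in Schwann cells, axonal integrity and nerve repair as its subject. Levels are given as CPM, the gene's estimated count scaled to the total estimated counts of its library.

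The 8 tables held these groups, named as in the labels. The first compared Fig4 +/+ with Fig4 -/- at postnatal day 12 (P12, 3 libraries each), and the second the same genotypes at P4 (3 each). The third compared DhhCre with Mitf at P21 (5 each), and the fourth Egr2Cre with Mitf at P12 (3 each). The fifth held nerves labelled Mitf, 4 uninjured and 4 at 3 days post injury. The sixth held wild type and Mutant nerves at 3, 7 and 14 days post injury (3 in each of 6 groups). The seventh compared Egr2Cre Mitf with Mitf (3 each), and the eighth held control (6), Mitf (6), Ndrg1 (5) and Mitf-Ndrg1 (5). DhhCre and Egr2Cre are Cre drivers commonly used in the Schwann cell lineage, but the labels do not say which alleles the animals named Mitf, Mutant, Ndrg1 or control carry, what the injury was, or the ages in the last 4 tables. Directions are therefore given by label. The labels also do not say whether the replicates of a group are different animals. If they are not, the p-values reflect technical spread.

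Entry into mitosis is driven by the kinase Cdk1 bound to cyclin B, and the chromosomes are then condensed, attached through kinetochores to spindle microtubules and held by the spindle checkpoint until the anaphase-promoting complex releases them. Transcripts of these proteins build up in G2 and M phase and are low in resting cells, so their sum is widely read as a mark of dividing cells. In peripheral nerve, Schwann cells divide before and around birth and stop as they form myelin, and Schwann cells, macrophages, fibroblasts and endothelial cells can divide after injury. In whole nerve RNA, fewer dividing cells and less RNA per dividing cell cannot be told apart.

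Promoters of such genes often carry CCAAT boxes, which bind NF-Y, and a cell cycle homology region (CHR), through which the DREAM and FOXM1-MYBL2 complexes act. The windows of the 250 bases before the annotated start are shown for the 4 members chosen for full statistics in every comparison. CHR (TTTGAA or TTCGAA) and CCAAT matches on either strand are in capitals. They are RefSeq windows of build GRCm38.p6, printed 5′ to 3′ on the gene's strand: Mki67 at chr7:135716380-135716629, Top2a at chr11:99024190-99024439, Cdk1 at chr10:69352913-69353162 and Ccnb1 at chr13:100786487-100786736, all on the minus strand.
Mki67: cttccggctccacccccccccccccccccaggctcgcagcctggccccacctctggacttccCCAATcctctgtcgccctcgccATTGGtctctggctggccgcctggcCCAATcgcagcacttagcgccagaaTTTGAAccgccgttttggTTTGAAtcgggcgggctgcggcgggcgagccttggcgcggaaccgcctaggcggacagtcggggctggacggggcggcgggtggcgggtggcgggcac
Top2a: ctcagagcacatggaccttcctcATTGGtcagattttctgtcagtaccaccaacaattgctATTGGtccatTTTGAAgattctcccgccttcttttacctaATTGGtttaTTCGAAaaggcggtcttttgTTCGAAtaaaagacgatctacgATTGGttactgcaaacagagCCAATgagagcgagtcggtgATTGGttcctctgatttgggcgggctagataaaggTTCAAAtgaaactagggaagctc
Cdk1: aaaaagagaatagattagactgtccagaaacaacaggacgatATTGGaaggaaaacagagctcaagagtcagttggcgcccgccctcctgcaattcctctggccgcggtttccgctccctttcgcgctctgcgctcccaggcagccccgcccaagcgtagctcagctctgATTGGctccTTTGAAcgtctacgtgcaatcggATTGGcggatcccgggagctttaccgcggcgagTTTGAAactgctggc
Ccnb1: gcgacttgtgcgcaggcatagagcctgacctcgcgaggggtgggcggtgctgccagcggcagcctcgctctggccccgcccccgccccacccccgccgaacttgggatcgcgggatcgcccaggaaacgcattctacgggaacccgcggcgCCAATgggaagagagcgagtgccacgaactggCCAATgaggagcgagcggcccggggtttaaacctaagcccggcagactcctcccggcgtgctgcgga

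The Top2a window held 4 CHR and 6 CCAAT matches, the Mki67 and Cdk1 windows 2 CHR and 3 CCAAT matches each, and the Ccnb1 window 2 CCAAT matches and no CHR match. Only the CHR letters named above were searched, so other forms of the element are not covered. Windows were found for 29 of the 33 members, 31 in all. CHR letters stood in 38.7% of the members' windows and 17.2% of all 32851 mouse windows of that length, and CCAAT in 77.4% and 33.9%. At least 2 CCAAT matches stood in 51.6% of the members' windows and 10.1% of all windows. Both motifs stood in 35.5% and 6.02%, and 6 members had neither (Nuf2, Nusap1, Mad2l1, Anln, Birc5 and Ndc80). The 11 members with CHR letters and those without had similar median changes: 3.25 and 3.18 (log2) after injury, -1.77 and -1.46 between days 3 and 14 in wild type, and 2.45 and 2.44 in Ndrg1 nerves. A match describes the letters and is not a measured binding site.

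The summed level of the 33 genes varied widely across the series and was highest in wild type nerves 3 days post injury (1420 ± 177 CPM, SD, n = 3), followed by Mutant nerves at that time (1361 ± 121, n = 3) and the P4 nerves of Fig4 +/+ (1209 ± 67.0, n = 3) and Fig4 -/- (1155 ± 93.2, n = 3), which overlapped. It was lowest in Mitf (92.0 ± 7.19, n = 6) and control nerves (99.7 ± 6.94, n = 6) of the eighth table, DhhCre at P21 (97.3 ± 12.5, n = 5), Mitf of the seventh table (102 ± 3.81, n = 3), Mitf at P21 (109 ± 13.5, n = 5) and uninjured Mitf nerves (111 ± 25.3, n = 4), whose libraries also overlapped. These levels come from tables that were quantified separately over different numbers of genes, so differences across tables were not tested. In uninjured Mitf nerves Anln alone was 30.8 to 33.8 CPM, in sums of 76.4 to 132, and its change after injury was not called. Per kilobase of the longest coding transcript, Anln had the highest level of the 33 in uninjured nerves (7.03 CPM per kb). It also led in control nerves of the eighth table (6.01) and at P12 in Fig4 +/+ (8.87). Cenpa led at day 3 in wild type (40.9) and in Ndrg1 nerves (12.1). The ranking depends on that choice of transcript, since a gene's other transcripts can be shorter.

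**Figure D1:**
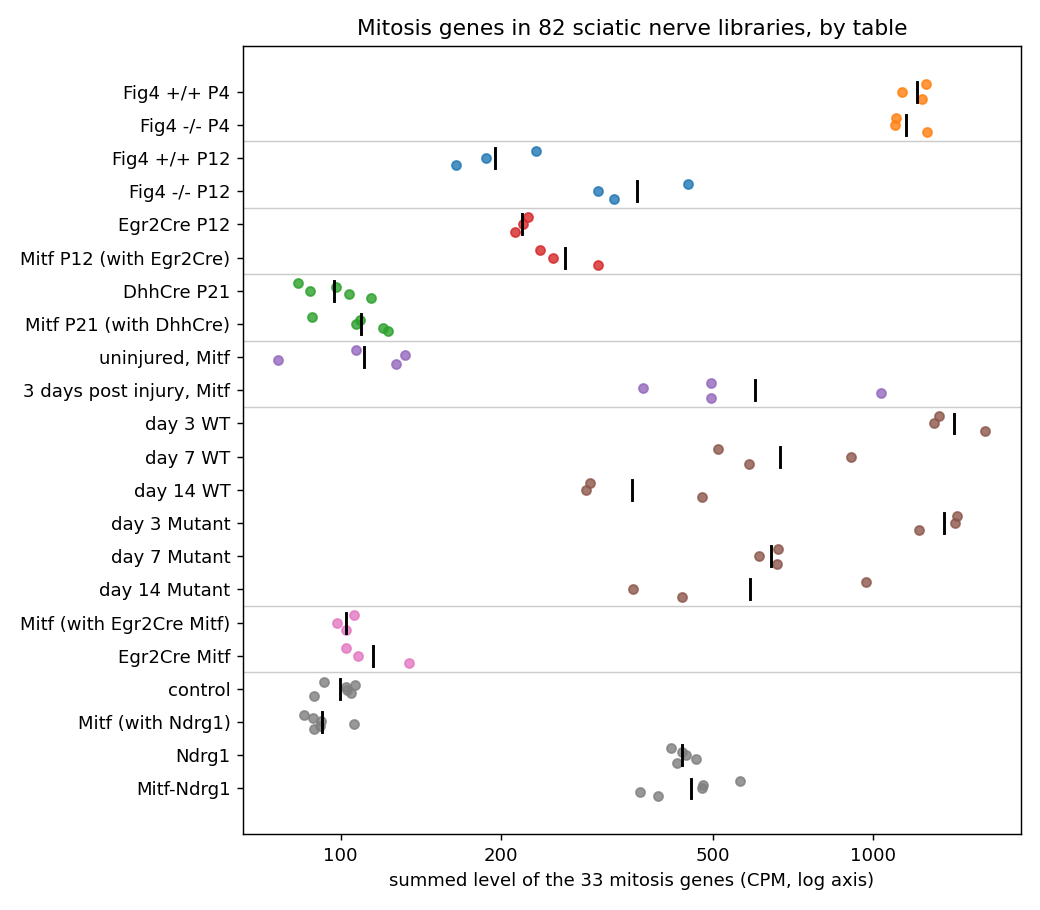
Summed level of the 33 mitosis genes (CPM, log axis) in each of the 82 libraries, by group; points are libraries and bars are group means. Wild type and Mutant nerves 3 days post injury and the P4 nerves sit at the top (1420 to 1155 CPM on average). Nerves labelled Mitf at 3 days post injury averaged 599 CPM. Uninjured, control and P21 nerves, with Mitf of the seventh and eighth tables, lie at the bottom (92.0 to 111 CPM).

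Depth was 1.544e+07 to 3.453e+07 total estimated counts per library. The 4 Schwann cell genes reported (Sox10, S100b, Erbb3, Mbp) were detected in all groups, but their sum was 270.2 to 1989 CPM in the 3, 7 and 14 day injury table against 5497 to 64159 in all other tables. Skeletal muscle markers (8 genes) were high in that injury table from day 7 on, with up to 88537 CPM at day 14, and in the seventh table (13804 to 52146). Of these and the macrophage and muscle markers, Tnnc2 and Ttn, 2 of the 8 muscle genes, were at 0 in Fig4 -/- at P12 and no other was at 0 throughout a group.

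In nerves labelled Mitf, 3 days after injury raised nearly the whole set: 26 of the 32 members tested rose and none fell, with a median log2 change of 3.27 against 0.03 over all 15245 genes tested, of which 11.7% rose and 10.4% fell. In CPM, 28 of the 32 lay above every uninjured library, as did 15.1% of all genes. The summed level went from 76.4 to 132 CPM in the 4 uninjured nerves to 369 to 1036 in the 4 injured ones (599 ± 297, SD). Injured replicate 2 was highest in 32 of the 33 members, and without it the injured mean was 454 ± 73.2 (n = 3). In summed level every injured library was above every uninjured one.

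Cdk1, the kinase that drives entry into mitosis, measured 0.985, 1.33, 3.34 and 1.14 CPM in uninjured replicates 1 to 4 and 34.5, 62.7, 19.1 and 28.5 CPM in the injured ones. The groups did not overlap, and Cdk1 had the largest change of the called members (log2 change 4.44 ± 0.54 SE, adjusted p = 0.00204, edgeR quasi-likelihood test with Benjamini-Hochberg adjustment over all genes). Its partner Ccna2 rose by 3.80 ± 0.51 (adjusted p = 0.00284) and Ccnb2 by 3.25 ± 0.42 (adjusted p = 0.00202). Ccnb1, the main mitotic cyclin, measured 2.43, 0, 0.667 and 0.475 CPM before and 9.64, 18.6, 1.55 and 5.05 CPM after injury, where a count of 0 allows up to 0.114 CPM in that library (3 counts). Injured replicate 3 lay below uninjured replicate 1, and the change of 3.29 ± 1.17 did not pass the test (adjusted p = 0.076).

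Mki67, which coats mitotic chromosomes and marks cycling cells, measured 9.21, 2.94, 9.72 and 9.31 CPM uninjured and 38.8, 90.4, 32.3 and 59.7 CPM injured. Top2a, the enzyme that untangles replicated DNA, measured 4.34, 1.98, 6.22 and 2.56 CPM uninjured and 34.3, 75.3, 21.4 and 39.7 CPM injured. Neither overlapped, and both rose, Mki67 by 2.84 ± 0.46 (log2, adjusted p = 0.00521) and Top2a by 3.51 ± 0.50 (adjusted p = 0.00351). All 6 mitotic kinases and chromosomal passengers rose, with the borealin gene Cdca8 at 2.82 ± 0.35 (adjusted p = 0.00195). All 5 centromere and kinetochore genes rose, with a median of 3.35, and so did all 5 motors and spindle genes, with Tpx2, a spindle assembly factor, at 3.62 ± 0.48. Of the 5 central spindle and cytokinesis genes 3 rose, among them Prc1, which bundles microtubules between the separating chromosomes (3.82 ± 0.51).

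Of the 5 spindle checkpoint members tested 2 rose, Ube2c (3.94 ± 0.55), which attaches ubiquitin for the anaphase-promoting complex, and Cdc20 (1.54 ± 0.41, adjusted p = 0.025), the activator of that complex and the smallest called change. Cdc20 lost its call without injured replicate 2 (1.09, adjusted p = 0.0604) and without uninjured replicate 1, 2 or 3 (adjusted p = 0.0717, 0.0652 and 0.0537), and also with the muscle covariate (1.82, 0.064) and the replicate block (1.43, 0.0949). Mad2l1, Bub1b and Ttk, which sense unattached kinetochores, had changes of 0.80 (adjusted p = 0.0625), 1.37 (0.0712) and 1.21 (0.131). Bub1 was under the count filter in this table, with 0.348, 0.305, 0 and 0 CPM uninjured and 3.94, 8.74, 0 and 4.18 CPM injured (zeros allow 0.095 to 0.129 CPM, and these limits cover counting error only). Anln, which scaffolds the contractile ring, was the only tested member with a negative change. It measured 33.7, 33.8, 30.8 and 31.3 CPM before and 22.7, 39.0, 22.6 and 23.8 CPM after injury (-0.26 ± 0.21, adjusted p = 0.399). The guanine exchange factor Ect2, also of cytokinesis, had a change of 1.36 (adjusted p = 0.146).

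The wider cell cycle moved with the members after injury. Of 52 other mitosis genes tested, 37 rose and 1 fell (median 2.95), and of 20 S phase genes 16 rose and none fell (1.69), among them the helicase gene Mcm6 (1.82). Of 18 regulators of mitotic transcription 7 rose and 2 fell, with E2f1 at 2.75 and Foxm1 at 2.79. Of 17 exit and checkpoint genes also used outside mitosis, 4 rose and 1 fell (median 0.17). Macrophage markers (11 genes) summed to 465 to 1266 CPM uninjured and 946 to 2397 injured, with 3 of 11 higher. The 4 Schwann cell genes summed to 27113 to 41276 CPM uninjured and 10096.5 to 20387 injured. Their part in the result was not tested. Muscle markers summed to 6.47 to 2055 CPM uninjured and 2.27 to 9.73 injured, and with them as a covariate 16 members were called, at the same median change of 3.27 (over all genes the calls went from 3365 to 1088). Genes with transcripts over 7500 bases had a median change 0.53 lower than genes under 2500 bases.

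In wild type nerves the mitosis genes declined from day 3 to day 14 post injury. The mean of each of the 33 was lower at day 7 than at day 3 and lower again at day 14. As a share of their day 3 mean, the members stood at a median of 45.4% at day 7 (range 23.2% to 77.8%) and 23.6% at day 14 (9.65% to 58.5%). These and later shares use CPM without the TMM factor. In CPM, 47.6% of all genes lay below every day 3 library at day 14 and 18.6% above. The shares can therefore show a larger fall than the fitted changes, which use that factor. The test called 25 of 33 lower at day 7 than at day 3 and none higher (median log2 change -0.996; 19.6% of all 15852 genes were lower), 9 lower at day 14 than at day 7 and none higher (median -0.75; background 4.9% lower and 2.52% higher), and 32 lower at day 14 than at day 3 (median -1.66; background 28.2%). In CPM, 31 members were below every earlier library at day 7 against day 3 (34.5% of all genes), 22 at day 14 against day 7 (26.8%) and 33 at day 14 against day 3 (47.6%). The smallest p values from day 3 to day 7 were those of Mki67, Ube2c (-1.38 ± 0.22), Cenpe (-1.85 ± 0.30), Nek2 (-1.29 ± 0.22), Birc5 (-1.04 ± 0.19) and Anln (-0.996 ± 0.19), and from day 3 to day 14 those of Nek2, Mki67, Cenpe, Birc5 (-1.66 ± 0.19), Cdca8 (-2.45 ± 0.29) and Ube2c (-1.96 ± 0.23).

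Mki67 measured 96.3, 78.8 and 74.9 CPM in wild type replicates 1 to 3 at day 3, 15.2, 26.7 and 16.0 at day 7, and 12.6, 8.12 and 6.75 at day 14. The 3 days did not overlap, and Mki67 fell by 1.97 ± 0.29 on the log2 scale to day 7 (adjusted p = 9.89e-05) and by 2.76 ± 0.30 to day 14 (3.99e-06). Cdk1 measured 113, 93.7 and 95.2 CPM at day 3, 56.3, 73.4 and 40.5 at day 7, and 41.0, 25.6 and 27.8 at day 14. It kept 31.2% of its day 3 mean at day 14, against 11.0% for Mki67, and fell by 1.26 ± 0.17 (adjusted p = 3.39e-05). Ccnb1 measured 48.4, 35.0 and 37.5 CPM, then 20.5, 34.1 and 17.7, then 17.6, 9.25 and 9.19, and fell by 1.33 ± 0.24 from day 3 to day 14 (adjusted p = 0.000345). Top2a measured 111, 90.5 and 87.3 CPM, then 23.9, 58.5 and 26.5, then 23.9, 11.4 and 13.1, a fall of 2.17 ± 0.39 (adjusted p = 0.000276).

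Members differed in how far they went. Cenpe, the kinetochore motor that brings chromosomes to the spindle equator, fell most from day 3 to day 14 (-2.94 ± 0.32, adjusted p = 4.7e-06), from 23.4, 18.3 and 16.5 CPM to 2.19, 1.35 and 2.08. The kinases Plk1 and Nek2, which act on centrosomes and spindle poles, fell by 2.83 ± 0.39 and 2.35 ± 0.23 (adjusted p = 3.32e-05 and 1.83e-06). Cenpa, the histone variant that marks centromeres, measured 63.3, 57.0 and 59.3 CPM at day 3 and 42.2, 25.6 and 25.8 at day 14, the smallest called fall (-0.52, adjusted p = 0.0251). That call was lost without day 14 replicate 2 or 3 (adjusted p = 0.09 and 0.115) and without day 3 replicate 1 or 3 (0.0878 and 0.0561). With the muscle covariate it was -0.42 (0.244), and without muscle-rich libraries -0.21 (0.337). Mad2l1, at 46.1, 35.1 and 38.0 CPM at day 3 and 28.9, 19.4 and 21.4 at day 14, was the member not called (-0.35, adjusted p = 0.0741).

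**Figure D2:**
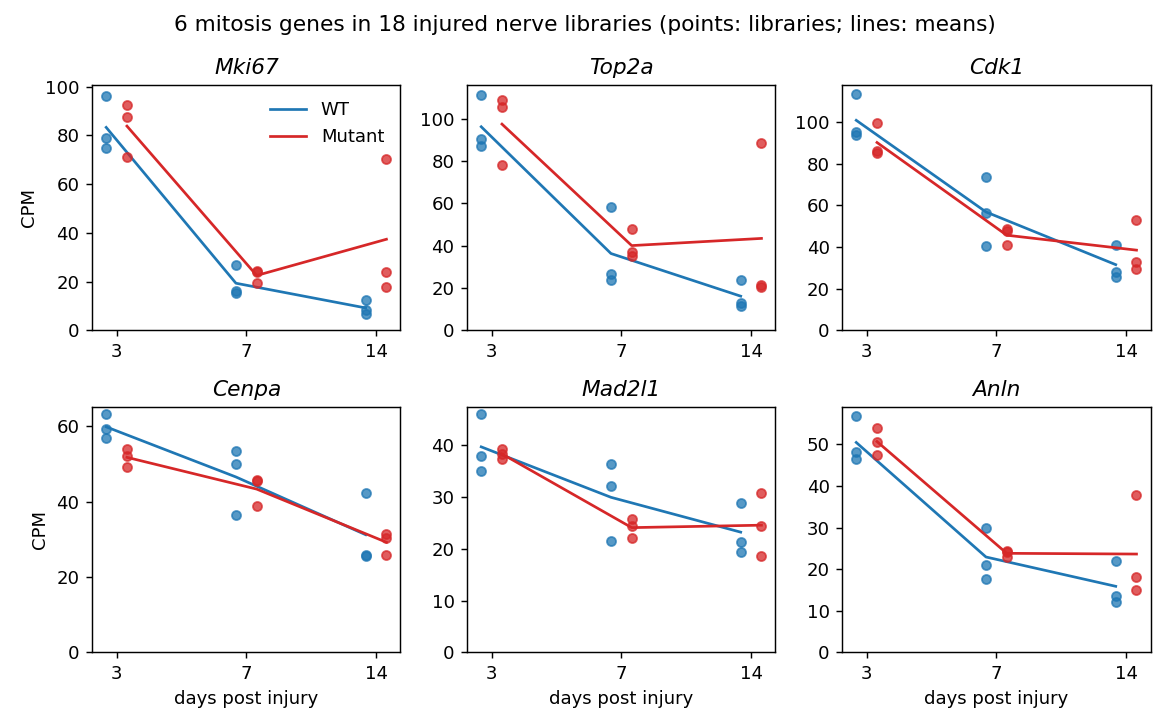
Levels of Mki67, Top2a, Cdk1, Cenpa, Mad2l1 and Anln (CPM) against days post injury in the 18 wild type and Mutant libraries; points are libraries and lines join group means. All 6 wild type means are lowest at day 14, and at day 14 Mutant replicate 3 stands above the other day 14 Mutant libraries for Mki67 (70.4 CPM) and Top2a (88.6 CPM).

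The step from day 7 to day 14 in wild type was less firm. The 9 members lower were Nek2 (-1.06 ± 0.23, adjusted p = 0.0183), Ccnb2 (-0.86 ± 0.20, 0.0249), Nuf2, Tpx2, Cdca8, Ndc80, Prc1, Plk1 and Cenpe, with Plk1 the largest (-1.39 ± 0.38). Mki67, Top2a, Cdk1 and Ccnb1 did not pass (adjusted p = 0.0872, 0.126, 0.0522 and 0.0713). The count was 15 without day 14 replicate 1, which was highest of its group in all 33 members, and 0 without day 14 replicate 2 or 3 or without day 7 replicate 2. Over the time course in wild type the muscle markers rose from 262 to 1952 CPM at day 3 to 7444 to 70674 at day 14, and the 4 Schwann cell genes went from 1484 to 1874 CPM to 270.2 to 557. Macrophage markers went from 4513 to 5577 CPM at day 3 to 2471 to 2785 at day 14 and neutrophil markers from 33.8 to 75.5 to 3.48 to 13.2, without overlap. At day 7 macrophage markers were 3675 to 5000 CPM and overlapped day 3. Fibroblast markers rose from 2738 to 3582 CPM at day 3 to 4824 to 7450 at day 14, and perineurial markers from 233 to 260 to 435 to 759, also without overlap. The part of these cell types in the decline cannot be told apart from time after injury. Leaving out libraries with over 10000 CPM of muscle markers leaves replicate 1 alone at day 14, assumed to vary like the other groups. It gave 27 members lower at day 7 than at day 3, 0 at day 14 than at day 7 and 30 at day 14 than at day 3, and a muscle covariate gave 17, 2 and 26.

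Mutant nerves also had lower levels at day 7: 29 of 33 members were lower and none higher (median -0.99; 17.2% of all genes), and all 33 were below every day 3 library in CPM (36.5% of all genes). Mki67 went from 71.2, 92.6 and 87.7 CPM to 24.2, 23.8 and 19.4 (-1.77 ± 0.28, adjusted p = 0.000308), and Cdk1 from 84.9, 86.0 and 99.3 to 47.6, 40.8 and 48.4 (-0.86 ± 0.17, 0.00157). Aurka, the spindle pole kinase, had the smallest p (-1.26 ± 0.19, adjusted p = 0.000167). Ccnb1 was called but lost its call when any 1 library of either day was left out (edgeR adjusted p 0.0536 to 0.0963). From day 7 to day 14, however, 1 member was lower, Nek2 (-0.69 ± 0.22, adjusted p = 0.043; background 9.16%), and 1 higher, Cenpf, a kinetochore protein of G2 (0.91 ± 0.24, 0.0197; background 8.55%). The median change was -0.16, and 1 member, Cenpa, lay below every day 7 library (11.7% of all genes). The Mutant group means of 22 members were lower at each step, and 11 had a day 14 mean above day 7, among them Mki67, Top2a, Cenpe, Kif11 and Kif23.

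That pattern rested on 1 library. At day 14 the summed level was 438, 354 and 970 CPM in Mutant replicates 1 to 3, and replicate 3 was highest in 32 of 33 members. Without it, 11 members were lower at day 14 than at day 7 and none higher, 1 member (Cenpf) had a day 14 mean above day 7, and the median share of the day 3 mean at day 14 was 27.8% in place of 44.3%. Without Mutant day 14 replicate 1 or 2 or day 7 replicate 2, 1 member was higher and 0 lower. Without day 7 replicate 1 or 3 no member was called. Replicate 3 also had the least muscle RNA of the Mutant day 14 libraries (6142 CPM against 19708 and 88537). It had the most fibroblast (13576 against 6535 and 4618 CPM), endothelial (976 against 424 and 241) and perineurial marker RNA (1217 against 681 and 444). The part of these cell types in the difference was not tested. From day 3 to day 14, 31 of 33 Mutant members were lower (median -1.08; background 22%), with Plk1 (-1.81 ± 0.37) the largest change and Nek2 (-1.61 ± 0.22, adjusted p = 4.6e-05) the one with the smallest p. Ect2 (-0.42) and Cenpf (-0.28) did not pass. Top2a was called but lost its call without day 14 replicate 1 or 2 (edgeR adjusted p = 0.103 and 0.0983). It was also lost without day 3 replicate 2 or 3 (0.0721 and 0.0655). In CPM, 26 were below every day 3 library (25.4% of all genes). Without the muscle-rich libraries, which leaves replicate 3 alone at day 14 and assumes it varies like the other groups, 17 were lower, and with the muscle covariate 0 were by edgeR, with 3 in place of 29 lower at day 7.

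Between genotypes, no member was called at day 3 (edgeR, 0 of 33; 0 at unadjusted p under 0.05; 0 by DESeq2; background 0% in each direction) or at day 7 (0 of 33; 3 at unadjusted p under 0.05; 0 by DESeq2; background 0%). At day 3 the Mutant minus wild type difference was -0.04 for Mki67 (95% interval -0.58 to 0.50) and -0.20 for Cdk1 (-0.54 to 0.13), and at day 7 it was 0.16 (-0.39 to 0.71) and -0.39 (-0.72 to -0.05). In CPM, Ccnb2 and Cenpa lay below every wild type library at day 3 (4.65% of all genes did). At day 14, 4 of 33 were higher in Mutant and none lower (median 0.46; 7.05% of all genes higher and 1.24% lower). They were Mki67 (1.66 ± 0.29, adjusted p = 0.00564), Cenpe (1.63 ± 0.32, 0.00984), Cenpf (1.11 ± 0.24, 0.0161) and Kif23 (1.18 ± 0.32, 0.0345), a motor of the central spindle. Cdk1 (0.02) and Ccnb1 (0.28) did not pass the test, and Top2a had 1.05 (adjusted p = 0.088) and Tpx2 0.93 (0.0527).

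At day 14 Mki67 measured 12.6, 8.12 and 6.75 CPM in wild type and 24.0, 17.6 and 70.4 in Mutant, so the groups did not overlap. Cenpe measured 2.19, 1.35 and 2.08 against 4.41, 4.16 and 13.8, and Kif23 4.27, 4.00 and 2.99 against 6.99, 5.78 and 20.3. These 3 were the members above every wild type library (7.63% of all genes were). Cenpf, at 7.08, 4.27 and 3.91 against 11.1, 7.03 and 23.6, overlapped by 1 library. Cdk1 measured 41.0, 25.6 and 27.8 against 32.9, 29.3 and 53.1, and Ccnb1 17.6, 9.25 and 9.19 against 12.2, 12.6 and 28.7; the 2 groups overlapped. The difference between the genotypes' changes from day 3 to day 14 was called in no member (edgeR, 0 of 33; 7 at unadjusted p under 0.05; 2 by DESeq2; background 0.0568% higher and 0% lower), with Mki67 at 1.69 (0.92 to 2.47, adjusted p = 0.127) and Cenpe at 1.76 (0.92 to 2.60, 0.132). For day 7 against day 3 it was also 0 (edgeR; 0 at unadjusted p under 0.05; 0 by DESeq2; background 0%). The number called for day 14 against day 3 was 1 without Mutant day 14 replicate 2.

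The count of 4 at day 14 depended on single libraries: it was 9 without Mutant replicate 1, 13 without Mutant replicate 2, 2 without Mutant replicate 3 or wild type replicate 3, and 1 without wild type replicate 2. It was 13 without the muscle-rich libraries (12 higher, 1 lower), which leaves 1 library in each group. Mki67 was called in every alternative fit run. Cenpe was lost without wild type replicate 2 (adjusted p = 0.0562). Cenpf was lost without Mutant replicate 3 (0.0954) and without wild type replicate 2 or 3 (0.0718 and 0.0941). Kif23 was lost without Mutant replicate 3 (0.243), without wild type replicate 1, 2 or 3 (0.0626, 0.0775 and 0.144) and with replicate number as a block (0.0536). Among other lists, 12 of 52 other mitosis genes were higher and none lower (median 0.62), including Hjurp, the chaperone that loads Cenpa (1.26), and the condensin subunit gene Smc4 (0.84), while no S phase gene passed (0 of 20 by edgeR; median 0.10).

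Transcript length moved with this difference. Over all genes, those with a longest coding transcript above 7500 bases had a median Mutant minus wild type change of 0.64 at day 14 (956 genes) and those under 2500 bases -0.03 (4864 genes). Across the 33 members the Spearman correlation of change with length was 0.40, and over all genes it was 0.54. Both are given as descriptions of genes measured in the same libraries. The called Mki67, Cenpf and Cenpe are among the 4 longest members, at 10061, 11130 and 7910 bases, and the fourth is Mad2l1 at 7557 bases (-0.18). With a length trend fitted in each library, Mki67 (1.05, adjusted p = 0.00906), Cenpe (1.12, 0.0233) and Kif23 (1.06, 0.0443) were called and Cenpf was not (0.50, 0.129). The correlation between genotypes was not limited to day 14. At day 3, where no member was called, it was 0.42 over the members and 0.40 over all genes, and at day 7 it was 0.20 and 0.27. From day 7 to day 14 in Mutant nerves the same correlation was 0.74 over the members and 0.02 over all genes. Its part in the result was otherwise not tested.

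**Figure D3:**
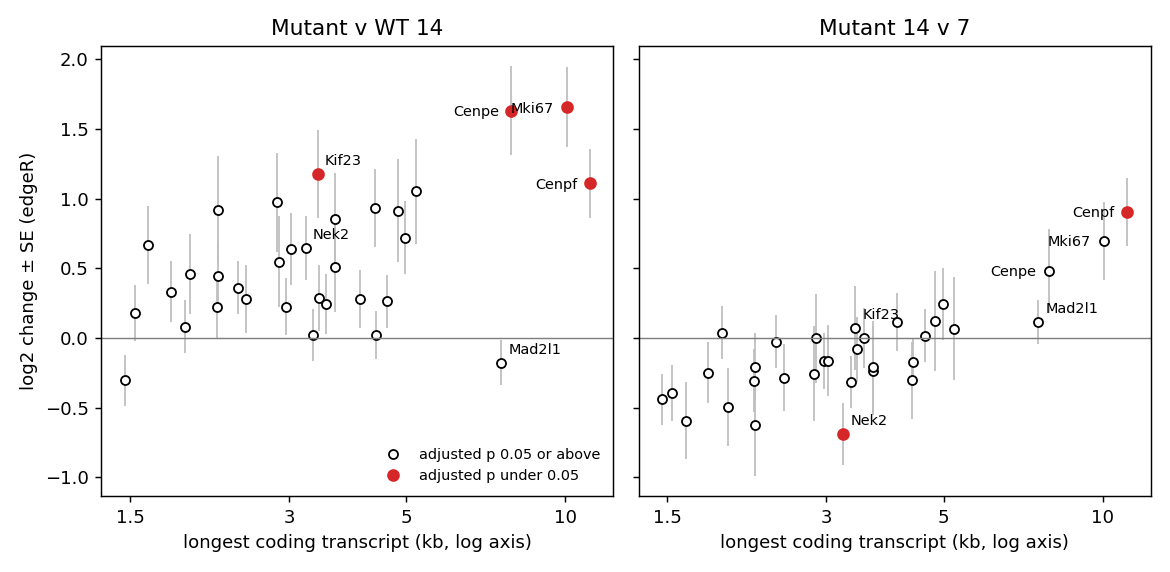
Log2 change ± SE of the 33 members against the length of the longest coding transcript (kb, log axis), for Mutant minus wild type at day 14 and for Mutant day 14 minus day 7. Mki67, Cenpf and Cenpe are among the 4 highest points of each plot, and Mad2l1, also long, is not.

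In Fig4 nerves a few mitosis genes were called higher in Fig4 -/- at P12 and none at P4. At P12, 4 of 33 members were higher in Fig4 -/- than in Fig4 +/+ and none lower (median log2 change 0.95; 1.87% of all 14338 genes were higher). Of the 33 changes, 32 were positive, and 17 members lay above every Fig4 +/+ library in CPM (21.4% of all genes did). The summed level was 164 to 233 CPM in Fig4 +/+ (195 ± 34.6, SD, n = 3) and 304 to 449 in Fig4 -/- (359 ± 78.2, n = 3). At P4 the sums were 1133 to 1260 and 1100 to 1262 CPM, and no member was called (edgeR, 0 of 33; 0 at unadjusted p under 0.05; 0 by DESeq2; background 0% higher and 0.00672% lower) or lay outside the other genotype's range (background 2.89% above and 1.16% below).

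Cdk1 measured 4.91, 5.87 and 8.28 CPM in Fig4 +/+ at P12 and 14.2, 20.4 and 20.0 in Fig4 -/-, without overlap (1.36 ± 0.26, adjusted p = 0.0176). Ccnb1 measured 1.86, 1.66 and 2.79 against 6.43, 8.03 and 12.1 (1.90 ± 0.37, adjusted p = 0.0176). Every Fig4 -/- library was above every Fig4 +/+ library for both the kinase and its cyclin. Bub1, a checkpoint kinase, measured 1.36, 1.06 and 1.16 against 4.15, 6.81 and 5.36 and had the largest called change (2.02 ± 0.43, adjusted p = 0.029). Prc1 measured 4.25, 4.49 and 10.9 against 19.1, 21.98 and 24.4 (1.58 ± 0.34, adjusted p = 0.031). Mki67 at 13.0, 18.6 and 21.3 against 27.4, 19.2 and 53.2 (0.75, adjusted p = 0.294) and Top2a at 10.8, 11.8 and 18.8 against 31.2, 17.4 and 39.1 (0.92, 0.135) overlapped, with Fig4 -/- replicate 2 within the range of Fig4 +/+.

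Next by p came Ccna2 (1.02 ± 0.27, adjusted p = 0.072) and Kif20a, a motor of the central spindle (1.42 ± 0.43, 0.107), which did not pass. Mad2l1 (-0.18 ± 0.21) and Anln (0.01 ± 0.15) were nearest 0 or below it, with Anln at 44.2, 41.4 and 36.9 CPM in Fig4 +/+ and 40.3, 50.4 and 48.0 in Fig4 -/-. At P4 the values overlapped for the same genes: Bub1 measured 15.2, 13.9 and 15.5 CPM in Fig4 +/+ and 15.2, 14.9 and 13.8 in Fig4 -/-. Mki67 there measured 90.8, 123 and 149 against 151, 124 and 87.4 (difference -0.02, 95% interval -0.59 to 0.55), and Cdk1 82.1, 48.7 and 53.5 against 58.3, 50.4 and 64.9 (-0.10, -0.50 to 0.31).

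Tested directly, the genotype difference at P12 exceeded that at P4 for 1 member, Bub1 (2.06 ± 0.32, adjusted p = 0.0316; 0.153% of all genes were called in that direction and 0.0145% in the other), with Ccnb1 at 2.00 (adjusted p = 0.0542) and Cdk1 at 1.46 (0.154). Age and count table changed together here and cannot be told apart. Calls depended on single libraries, while the median change at P12 stayed between 0.78 and 1.19 with 1 library left out. At P12 the count was 0 without Fig4 -/- replicate 2 or without Fig4 +/+ replicate 1 or 2, and 2 without Fig4 -/- replicate 3. By age, no member was called without P12 Fig4 -/- replicate 2 or 3, P12 Fig4 +/+ replicate 1 or 2, P4 Fig4 -/- replicate 1, 2 or 3, or P4 Fig4 +/+ replicate 2 or 3, and 2 members were called without P12 Fig4 +/+ replicate 3. With the replicate block Bub1 was not called at P12 (1.997, adjusted p = 0.0656) or by age (2.03, 0.455).

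Of the other lists at P12, 3 of 50 other mitosis genes were higher in Fig4 -/- and none lower (median 0.68): Pbk (1.91), a mitotic kinase, and the spindle-associated Ckap2 (2.07) and Knstrn (1.76). Of 20 S phase genes 2 were higher, Chaf1a (1.20) and Mcm6 (1.15), and no regulator or exit gene passed in edgeR (0 of 18 and 0 of 17). Macrophage markers summed to 443 to 563 CPM in Fig4 +/+ and 914 to 1276 in Fig4 -/- at P12, with 8 of 11 higher, whereas at P4 they spanned 453 to 1011 and 594 to 1037. Their part in the result was not tested. Muscle markers were low at P12 (8.74 to 78.6 CPM in Fig4 +/+ and 2.81 to 4.19 in Fig4 -/-), and with them as a covariate no member was called by edgeR, at a median change of 0.89 against 0.95 without it (over all genes the calls went from 435 to 50). The 4 Schwann cell genes at P12 summed to 23528 to 32549 CPM in Fig4 +/+ and 19465.5 to 20777 in Fig4 -/-. Genes with long transcripts had a median change 0.38 below that of genes with short ones.

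Nerves labelled Ndrg1 had much higher levels of the set than their controls. Against control, 32 of 33 members rose and none fell (median 2.41; 30.8% of all 15910 genes rose), and in CPM 32 lay above every control library (26.3% of all genes). Against Mitf, Mitf-Ndrg1 nerves had 33 of 33 members higher (median 2.55; 29.7% of all genes), all above every Mitf library (33.2% of all genes). The summed level was 99.7 ± 6.94 CPM in control (SD, n = 6), 92.0 ± 7.19 in Mitf (n = 6), 438 ± 18.1 in Ndrg1 (n = 5) and 456 ± 78.5 in Mitf-Ndrg1 (n = 5).

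Cdk1 ranged from 1.44 to 2.42 CPM in control (median 1.97) and from 1.18 to 2.47 in Mitf (median 1.63). In Ndrg1 it ranged from 19.2 to 26.9 (median 22.9), and in Mitf-Ndrg1 from 18.8 to 22.8 (median 22.1). It had the largest change against control (3.40 ± 0.16, adjusted p = 8.9e-15). Ccnb1 had a median of 1.01 CPM in control (0.741 to 1.30), 0.821 in Mitf (0.623 to 0.963), 8.94 in Ndrg1 (8.13 to 11.3) and 11.4 in Mitf-Ndrg1 (7.78 to 13.8). It rose by 3.05 ± 0.16 in Ndrg1 and by 3.51 ± 0.16 in Mitf-Ndrg1 against Mitf, the largest there. Ccna2 rose by 3.19 and 3.22. In Mitf-Ndrg1 against Mitf the smallest p was that of Birc5 (3.03 ± 0.14, adjusted p = 6.45e-15).

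Mki67 measured 40.2, 41.0, 51.0, 42.7 and 36.8 CPM in Ndrg1 replicates and 33.1, 24.1, 42.2, 44.4 and 59.8 in Mitf-Ndrg1, against 4.79 to 8.31 in control and 3.89 to 7.48 in Mitf. The Ndrg1 and Mitf-Ndrg1 groups overlapped, and both stood above control and Mitf (2.53 ± 0.20 and 2.48 ± 0.20). Top2a had medians of 4.69 CPM in control, 4.10 in Mitf, 28.4 in Ndrg1 and 36.5 in Mitf-Ndrg1, with changes of 2.41 ± 0.15 and 2.71 ± 0.16. Birc5, the passenger protein survivin, had the smallest p against control (3.18 ± 0.14, adjusted p = 2.97e-15), with medians of 1.40 CPM in control and 14.4 in Ndrg1. Cenpa rose by 2.22 and Cenpf by 3.04 in Ndrg1. The spindle checkpoint genes rose least as a group (median 1.59), with Ttk at 0.79 ± 0.20 (adjusted p = 0.0015) the smallest called change and Mad2l1 at 1.09.

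Anln was again apart. It spanned 24.3 to 32.2 CPM in control and 29.1 to 38.1 in Ndrg1, with a change of 0.18 ± 0.09 that did not pass (adjusted p = 0.0759), and it had the smallest called change in Mitf-Ndrg1 against Mitf (0.42 ± 0.09, adjusted p = 0.000225). Of 52 other mitosis genes, 49 rose and 1 fell in Ndrg1 against control (median 2.24), with Pbk at 3.88. Of 20 S phase genes 18 rose, with Rrm2, a subunit of ribonucleotide reductase, at 3.22, and of 18 regulators 10 rose and 2 fell, with E2f1 at 1.86 and Foxm1 at 1.63. Of 17 exit and checkpoint genes 5 rose and 3 fell (median -0.07). Macrophage markers summed to 452 to 606 CPM in control, 455 to 600 in Mitf, 3578 to 5019 in Ndrg1 and 4214 to 5471 in Mitf-Ndrg1, with 10 of 11 higher in each comparison. The 4 Schwann cell genes summed to 33531 to 41233.5 CPM in control and 12299.8 to 24285 in Ndrg1. Their part in the result was not tested.

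**Figure D4:**
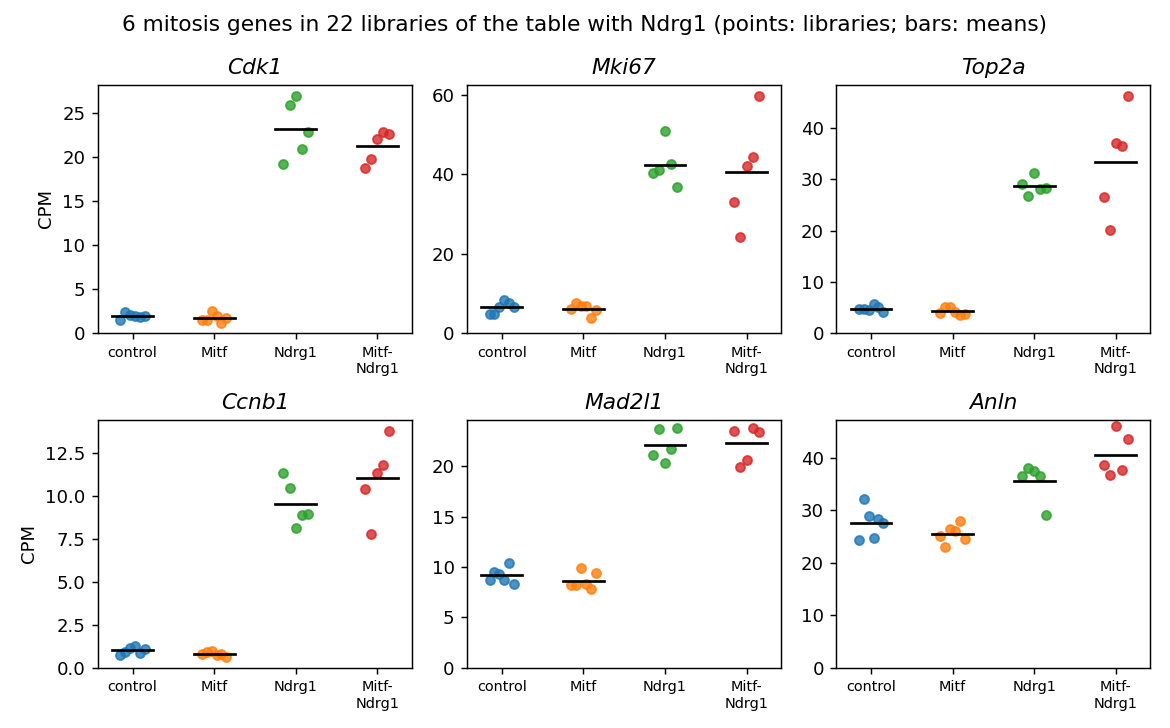
Levels of Cdk1, Mki67, Top2a, Ccnb1, Mad2l1 and Anln (CPM) in the 22 libraries of control, Mitf, Ndrg1 and Mitf-Ndrg1; points are libraries and bars are means. Cdk1 lies between 1.18 and 2.47 CPM in control and Mitf and between 18.8 and 26.9 in the Ndrg1 and Mitf-Ndrg1 nerves, and Anln overlaps between control and Ndrg1.

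Where labels differed in Mitf, or in Egr2Cre beside Mitf, no member was called. In Mitf against control of the eighth table, 0 of 33 passed (edgeR; 1 at unadjusted p under 0.05; 0 by DESeq2; median -0.14; background 0% higher and 0.00629% lower), with Cdk1 at -0.18 (95% interval -0.49 to 0.13) and Mki67 at -0.08 (-0.46 to 0.30). In Mitf-Ndrg1 against Ndrg1, 0 of 33 passed (edgeR; 1 at unadjusted p under 0.05; 0 by DESeq2; median 0.01; background 1.07% higher and 0.402% lower), with Cdk1 at -0.20 (-0.49 to 0.09), Mki67 at -0.13 (-0.52 to 0.26), Top2a at 0.14 (-0.16 to 0.44) and Ccnb1 at 0.15 (-0.15 to 0.44). Each of these intervals includes 0. The test of whether the Mitf label changed the Ndrg1 difference called 0 of 33 (edgeR; 3 at unadjusted p under 0.05; 0 by DESeq2; background 0.289% higher and 0.101% lower), with Ccnb1 at 0.46 (0.02 to 0.90, adjusted p = 0.357).

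At P21, Mitf against DhhCre had 0 of 32 called (edgeR; 2 at unadjusted p under 0.05; 0 by DESeq2; median 0.25; background 0.0143% higher and 0% lower), with summed levels of 109 ± 13.5 and 97.3 ± 12.5 CPM (SD, n = 5 each). The same-numbered libraries deviated together there, and Mitf had the higher sum in 5 of 5 pairs, by 5.36 to 19.1 CPM. With the replicate block the median was 0.27 and 0 members were called by edgeR. Bub1 was under the count filter there. Mki67 was at 0.25 (-0.16 to 0.67) and Cdk1 at 0.19 (-0.36 to 0.74). At P12, Mitf against Egr2Cre had 0 of 33 called (edgeR; 1 at unadjusted p under 0.05; 0 by DESeq2; median 0.29; background 0% higher and 0.0139% lower), with sums of 264 ± 35.4 and 219 ± 5.81 CPM (n = 3 each). Cenpf, Ndc80 and Nusap1 lay above every Egr2Cre library (2.57% of all genes did), and Mki67 was at 0.22 (-0.03 to 0.46). In the seventh table, Egr2Cre Mitf against Mitf had 0 of 33 called (edgeR; 1 at unadjusted p under 0.05; 0 by DESeq2; median 0.21; background 0% in each direction), with sums of 115 ± 17.0 and 102 ± 3.81 CPM, higher in 2 of 3 same-numbered pairs. Ccnb2, Plk1, Nek2, Kif2c and Prc1 lay above every Mitf library there (6.13% of all genes did). All libraries of that table were rich in muscle markers.

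**Figure D5:**
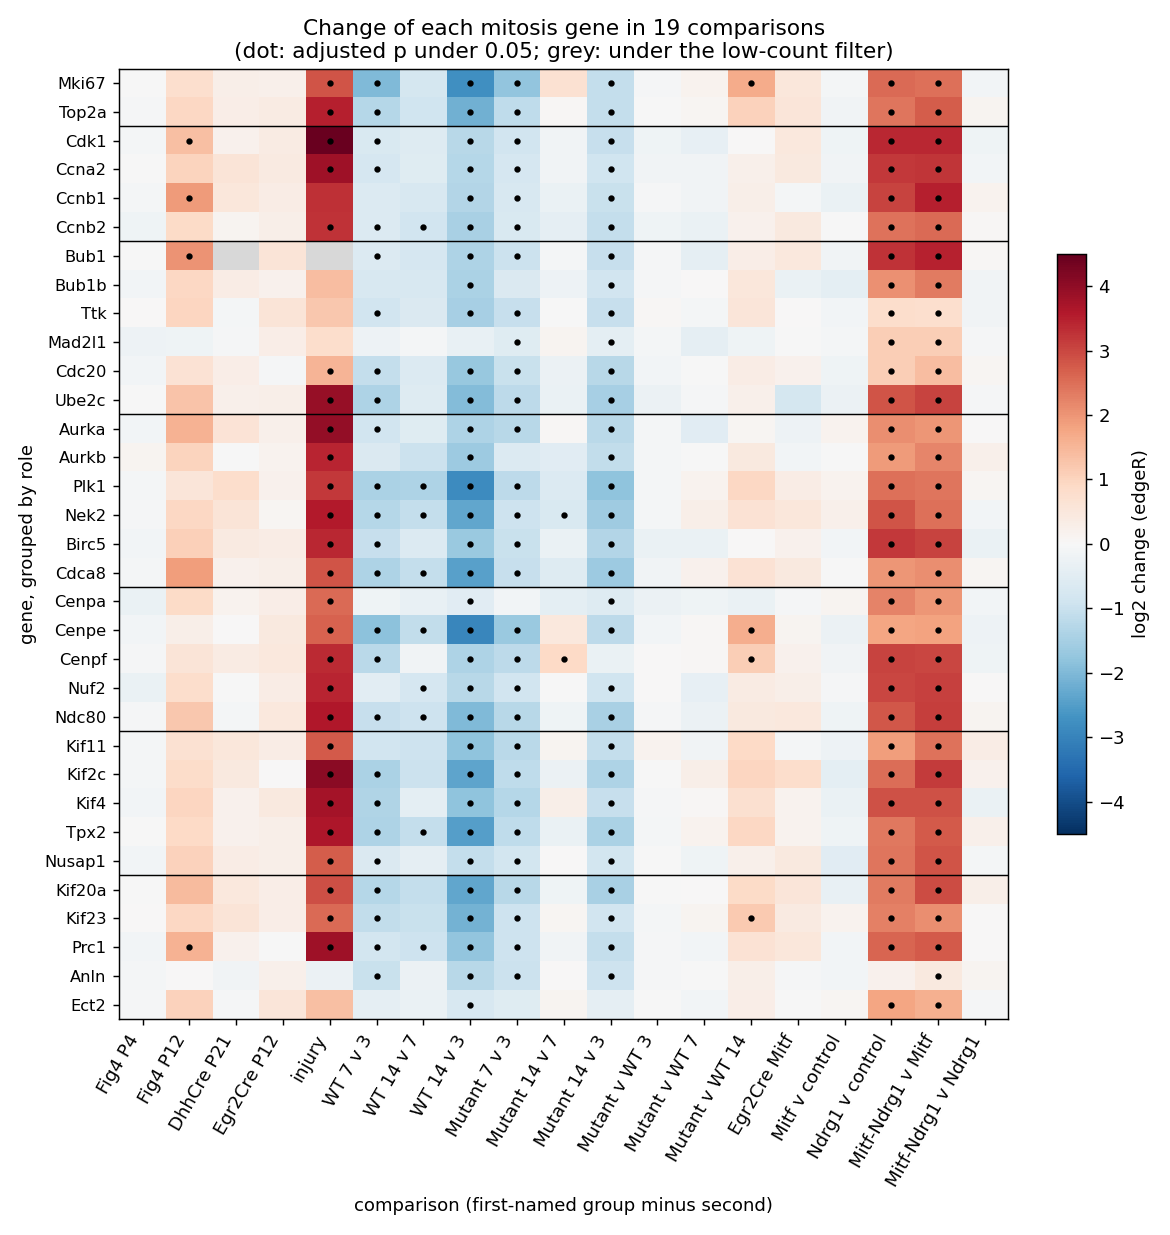
Log2 change of each of the 33 mitosis genes (rows, by role) in 19 within-table comparisons (columns); dots mark adjusted p under 0.05 and grey marks genes under the count filter. The injury column and the columns of Ndrg1 against control and Mitf-Ndrg1 against Mitf are high almost throughout. The columns of later against earlier days after injury are low except that of Mutant day 14 against day 7 (median -0.16). The columns that compare Mitf with DhhCre, Egr2Cre or control are pale.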

How the data were processed

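Stranded poly(A) RNA libraries were made from sciatic nerve after RNA integrity was measured, per the labels' protocols. The authors quantified reads with kallisto on mm10, per the submitters' processing notes, and deposited 8 tables of estimated counts per gene. The labels and notes used here name no version or annotation and do not describe how transcripts were summed to genes. Whether counts were scaled for transcript length is not stated there. Genes of nearly the same sequence share reads.

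The deposited estimated counts were rounded and tested per table with edgeR 4.0.16 in R 4.3.3 (TMM scaling, filterByExpr with a minimum count of 10, robust quasi-likelihood test, two-sided, Benjamini-Hochberg over all genes, threshold 0.05). The difference by age joined 2 tables. In all, 23 comparisons were made, as the first-named group minus the second. Intervals are 95% by a normal approximation from the SE, and they cover the spread between samples. With few libraries they can be narrower than the quasi-likelihood test implies. CPM uses the total estimated counts of a library (1.544e+07 to 3.453e+07) and no TMM factor. The count test was also run on simulated data with known changes. The simulated libraries were drawn independently, without an outlying library or a muscle difference, so they do not cover those features of the data.

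Mki67, Top2a, Cdk1 and Ccnb1 were chosen for full statistics in each comparison. Where members were called, the 6 with the smallest p and the largest and smallest called change were chosen too. The text prints part of these. From each other list up to 3 genes with the smallest p were named. The members and lists were chosen with earlier results of these data known, so counts are set beside those of all genes, and no p was adjusted over the list. Transcript lengths are from GENCODE vM21 and promoter windows from RefSeq GRCm38.p6.

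The alternative fits were DESeq2 1.42.0, its size factors in edgeR (RLE), no count filter, replicate number as a block and leaving out each library. A muscle covariate, leaving out libraries with muscle markers above 10000 CPM, and a transcript length offset were chosen after seeing the data. Same-numbered libraries deviated together (every correlation above 0.1) in the P21 table (0.119 to 0.299, 5 pairs) and in the table of Egr2Cre Mitf (0.123 to 0.340, 3 pairs). The pairing there comes from the data and the label numbers, and the block changed no call of a member in these. Schwann cell genes are given as the sum of 4 genes of a longer list, whose rest is not reported here, so no count of that list is given.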

Additional observations from a re-analysis of the deposited data

Results flagged for a closer look

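By Dixon's criterion, 1 library stood apart from the rest of its group in 16 of 264 member values over all groups of 4 to 10 libraries (6.06%), and chance alone gives about 1 in 20. Of the members chosen for full statistics in a comparison of that group, this held for 3 values, and it held for 1 summed level. Ccna2 was 59.0 CPM in injured replicate 2 of the nerves labelled Mitf, where the other 3 injured libraries had 19.4 to 25.2. Mki67 was 2.94 CPM in uninjured replicate 2, where the others had 9.21 to 9.72. Cdk1 was 3.34 CPM in uninjured replicate 3, where the others had 0.985 to 1.33. The summed level of the members was 105.9 CPM in Mitf replicate 3 of the table with Ndrg1, where the others had 85.4 to 91.9.

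The Fig4 difference between P12 and P4 was called for Bub1, at 2.06 on the log2 scale, by the test of the difference itself (edgeR, adjusted p = 0.0316). The 2 ages were counted in separate tables.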

How the results depend on the processing

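The number of members called was within 1.5 times the reported count in 133 of 157 fits that changed a setting and in 168 of 198 that left out 1 library. A count of 0 that stayed 0 was taken as within that limit, so comparisons with no called member raise these shares. In Fig4 at P12 (4 reported) DESeq2 called 7, no count filter 10 and the muscle covariate 0. For Fig4 by age (1) DESeq2 called 6, no filter 2, the muscle covariate 3, and the replicate block and the fit without muscle-rich libraries 0. In injury (26) the muscle covariate called 16. In wild type day 14 against 7 (9) DESeq2 called 16, no filter 6, the block 4, the muscle covariate 2 and the fit without muscle-rich libraries 0. In Mutant day 7 against 3 (29) the muscle covariate called 3. In Mutant day 14 against 3 (31) it called 0, and 17 were called without muscle-rich libraries. In Mutant day 14 against 7 (2, 1 in each direction) the counts were 1 with no filter (higher) and 1 with the block (higher). The muscle covariate gave 2 (2 higher, 0 lower) and the length offset 3 (1 higher, 2 lower). Without muscle-rich libraries, which leaves 1 Mutant library at day 14, the median change was 0.31. Mutant against wild type without muscle-rich libraries gave 3 at day 7 (0) and 13 at day 14 (4). For genotype by time at day 14 (0), DESeq2 called 2, the muscle covariate 6 and the fit without muscle-rich libraries 7. The cause was not tested.

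Leaving out 1 library gave 0 to 4 in Fig4 at P12, 0 to 2 by age, 24 to 29 in injury, 18 to 30, 0 to 15 and 30 to 33 in wild type (day 7 against 3, 14 against 7, 14 against 3), 21 to 27, 0 to 11 and 25 to 31 in Mutant, 1 to 13 in Mutant against wild type at day 14, 0 to 1 for genotype by time at day 14, 32 to 33 in Ndrg1 against control and 33 to 33 in Mitf-Ndrg1 against Mitf. With the muscle covariate, Mad2l1 (0.055), Mki67 (0.074) and Top2a (0.48) changed sign in Mutant day 14 against 3. The median of Mutant day 14 against 7 turned to 0.26 with that covariate, 0.31 without muscle-rich libraries and lay between -0.52 and 0.035 with 1 library left out (without Mutant day 14 replicates 3 and 1). Muscle markers moved with time in that table, so that covariate takes up time as well. All libraries of the seventh table were muscle-rich, so they were not left out there. In the 6 tables other than the third and the seventh at least 1 same-numbered pair correlated below 0.1 (lowest -0.68). Pairing by number was not taken up there, but these correlations cannot exclude it. In the fifth table all 4 pairs were positive (0.00976 to 0.171), and the block called 21 members after injury in place of 26. With the replicate block, wild type day 14 against 7 went from 9 to 4 and Mutant day 14 against 7 from 2 to 1. Fig4 by age went from 1 to 0. No other count changed by over 1.5 times with that block. Members under about 1 CPM, such as Bub1 in uninjured nerves, are limited by depth.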

Other observations

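Ube2c went against most of the set in the seventh table, at 5.70, 8.22 and 9.88 CPM in Egr2Cre Mitf and 7.26, 18.6 and 11.8 in Mitf (log2 change -0.78, 95% interval -1.62 to 0.07, edgeR adjusted p = 0.846). The libraries overlapped.

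Of 49 promoter windows of 45 other mitosis genes, 36.7% held CHR letters and 63.3% CCAAT, shares nearer to those of the members (38.7% and 77.4%) than to those of all windows (17.2% and 33.9%). In Mitf-Ndrg1 against Mitf all 20 S phase genes tested rose (median 1.10), and in Mitf-Ndrg1 against Ndrg1 none passed (edgeR, 0 of 20; median -0.15).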
